A study of Mus musculus with 8 samples.

Results

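The small leucine-rich proteoglycans (SLRPs) are secreted matrix proteins, and 9 of their genes were followed through the reprogramming of mouse fibroblasts: Bgn, Dcn, Aspn, Lum, Fmod, Prelp, Omd, Ogn and Podn. They were taken by symbol from a deposited table of 17922 gene rows, each of the 9 was found on 1 row, and all 9 Ensembl identifiers paired with the same symbol in a reference table of gene names. The identifiers in the table are Bgn (ENSMUSG00000031375), Dcn (ENSMUSG00000019929), Aspn (ENSMUSG00000021388), Lum (ENSMUSG00000036446), Fmod (ENSMUSG00000041559), Prelp (ENSMUSG00000041577), Omd (ENSMUSG00000048368), Ogn (ENSMUSG00000021390) and Podn (ENSMUSG00000028600). The groups were MEFs (embryonic fibroblasts of 13.5-day fetuses, at day 0), reprogramming cultures at day 3 and at day 6 of induction, and fully reprogrammed iPSCs (induced pluripotent stem cells derived from MEFs), all of strain C57BL/6. The cultures came from tetO-OSKM mice, in which 2 ug/ml doxycycline switches on Pou5f1, Sox2, Klf4 and Myc. Induction took place in serum-replacement medium with LIF and 3 uM of the GSK3 inhibitor CHIR99021. The sources used here do not give the medium of the uninduced MEFs, whether the iPSCs still received doxycycline, or how many animals or clones stand behind a library.

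Each group had 1 library of long RNA, so no value has an error and no difference could be tested. Levels are FPKM (fragments per kilobase of gene, scaled to library size), which can be compared between genes and gives a share of a library rather than molecules per cell. Differences are on the log2(FPKM + 1) scale, which understates those of weakly expressed genes. A gene is described as called when its difference reached 1 in either direction and 1 or both of the values reached 1 FPKM. Members were set beside all rows compared in the same contrast. In these bulk libraries, fewer cells that express a gene and less RNA per cell cannot be told apart.

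SLRPs have a small core protein built of leucine-rich repeats, folded into a curved solenoid whose face binds collagen fibrils. They limit how fibrils fuse and thicken, and several also hold growth factors such as TGF-beta in the matrix. Fibroblasts, tendon cells and skeletal cells are their main sources. The members fall into classes by sequence. Bgn (biglycan), Dcn (decorin) and Aspn (asporin) are class I, of which biglycan and decorin carry chondroitin or dermatan sulfate chains. Lum (lumican), Fmod (fibromodulin), Prelp (prolargin) and Omd (osteomodulin) are class II, of which lumican, fibromodulin and osteomodulin can carry keratan sulfate. Ogn (osteoglycin, or mimecan) is class III and Podn (podocan) class V.

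The MEF and iPSC libraries matched their labels by markers. In iPSCs, 13 of 14 fibroblast markers were called lower than in MEFs, beside 25.0% of all rows. Of 10 pluripotency markers, 10 were called higher, beside 21.1%. All 10 were under 1 FPKM in MEFs and were compared only through their iPSC values, so this count cannot be read against that share. Vim, the intermediate filament of mesenchymal cells, was at 171 FPKM in iPSCs, against 3537 in MEFs. Nanog was at 171 FPKM in iPSCs, against 0.398 in MEFs. The day 3 and day 6 labels had less marker evidence. At day 6 against MEFs, 0 of 14 fibroblast markers were called, and only 2 of 10 pluripotency markers were compared. Both were called higher, beside 0.770% of all rows. Both were under 1 FPKM in MEFs and were compared only through their day 6 values, so this count cannot be read against that share either. They were Pou5f1, at 0.226, 3.03 and 8.56 FPKM in MEFs, day 3 and day 6, and Sox2, at 0.411, 1.19 and 2.03. Both are factors that doxycycline switches on. Depth is not stated. The most frequent ratio among values under 0.06 FPKM put the day 3 library at 0.664 of the depth of the MEF library, day 6 at 1.04 and iPSCs at 1.05. By this estimate, low values were coarsest at day 3.

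Promoters are shown for 2 pairs of members whose patterns over the 4 libraries were nearest to each other, Bgn with Ogn and Fmod with Prelp. Of the 9 members, 7 had an entry in the RefSeq promoter table (GRCm38.p6), which holds 250 bases before and 50 after an annotated start. The entries lie at chrX:73483351-73483650 (plus strand), chr13:49607765-49608064 (plus), chr1:134037004-134037303 (plus) and chr1:133921352-133921651 (minus). Capitals mark matches, on either strand, to TATAAA (the letters of a TATA box) or GGGNGTG (a GT box of the kind bound by KLF factors). In Ogn, matches to TATAAA on both strands overlap.
Bgn: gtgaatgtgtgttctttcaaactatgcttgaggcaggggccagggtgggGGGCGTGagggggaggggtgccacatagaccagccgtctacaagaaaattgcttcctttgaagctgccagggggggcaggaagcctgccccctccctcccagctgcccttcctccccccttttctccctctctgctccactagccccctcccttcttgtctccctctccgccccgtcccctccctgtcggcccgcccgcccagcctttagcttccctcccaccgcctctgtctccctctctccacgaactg
Ogn: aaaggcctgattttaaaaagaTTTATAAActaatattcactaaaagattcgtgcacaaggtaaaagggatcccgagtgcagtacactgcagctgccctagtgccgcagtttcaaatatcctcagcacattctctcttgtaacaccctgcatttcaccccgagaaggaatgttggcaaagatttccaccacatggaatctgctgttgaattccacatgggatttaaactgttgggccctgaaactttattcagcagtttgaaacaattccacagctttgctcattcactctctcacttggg
Fmod: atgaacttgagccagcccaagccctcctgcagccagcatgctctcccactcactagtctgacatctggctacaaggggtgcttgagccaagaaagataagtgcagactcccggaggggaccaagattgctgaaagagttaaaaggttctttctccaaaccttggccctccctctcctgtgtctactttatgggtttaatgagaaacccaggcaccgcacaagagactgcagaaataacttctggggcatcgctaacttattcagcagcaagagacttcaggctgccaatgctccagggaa
Prelp: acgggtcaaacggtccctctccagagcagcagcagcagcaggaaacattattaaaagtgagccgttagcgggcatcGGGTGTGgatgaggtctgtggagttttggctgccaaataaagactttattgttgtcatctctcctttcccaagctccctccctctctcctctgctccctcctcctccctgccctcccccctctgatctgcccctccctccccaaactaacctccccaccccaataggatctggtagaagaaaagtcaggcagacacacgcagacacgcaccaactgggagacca

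The pairs did not share these letters. Ogn held TATAAA and Bgn held GGGNGTG, while Prelp held GGGNGTG and Fmod neither motif. Over the 8 entries of the 7 members, TATAAA was found in 2 (Aspn and Ogn), against 13.6% of all 32851 promoters. The 4 entries with GGGNGTG belonged to Prelp, Bgn and Podn, which had 2 entries, and 29.2% of all promoters held that motif. No member entry held ATGCAAAT (an octamer of POU factors, in 1.74% of all promoters), ACAATG (a SOX core, 12.6%), CACGTG (an E-box of MYC and MAX, 7.15%) or TGANTCA (an AP-1 element, 7.81%). CpG content also differed within the pairs. The Bgn promoter had 9 CpG and that of Ogn 4, and the Prelp promoter had 7 and that of Fmod 3, beside a median of 7 over all promoters. These matches are letters in a window and are not evidence of binding.

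The 9 genes spanned a wide range of levels in fibroblasts. Bgn and Ogn were far above the others, Aspn came next, Omd, Fmod and Prelp were close to each other, and Lum, Podn and Dcn were lowest. Bgn, which binds collagen and TGF-beta, measured 1110 FPKM in MEFs and 1245 on day 3, then 1009 on day 6, and 2.06 in iPSCs. Its rank among the 17922 rows was 45 in MEFs, 34 on day 3, 40 on day 6 and 10490 in iPSCs. Ogn measured 802, 784, 764 and 1.30 FPKM over these 4 stages, with ranks of 69, 67, 64 and 11318. Through day 6 the highest value was 1.23 times the lowest for Bgn and 1.05 times for Ogn, and both genes were low in iPSCs.

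The class I gene Aspn, whose product competes with decorin for collagen, measured 109.7 FPKM in MEFs and 98.7 on day 3, then 99.5 on day 6, and 0.408 in iPSCs. Decorin is widely used as a fibroblast marker, but Dcn was listed as the lowest of the 9 in MEFs. Its 4 values in that order were 1.84, 4.76, 9.43 and 0.0634 FPKM, so it was higher at each step through day 6. The MEF value is a single estimate from 1 library, and the table does not show whether it is a true low level or an error of estimation for that row. The place of Dcn in the MEF order and its differences from MEFs rest on it. In the other fibroblast-stage libraries Dcn was also low, at position 9 at day 3 and 8 at day 6.

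Among the class II genes, Fmod, which binds collagen and lysyl oxidase, measured 26.5, 36.5, 49.98 and 0.0389 FPKM over the 4 stages from MEFs to iPSCs. Prelp, which binds heparan sulfate and collagen, measured 24.4, 36.4, 52.7 and 0.0336 FPKM. The 2 genes ran almost together, and both were highest at day 6. Omd, known from mineralized tissue, was at 27.2, 29.9, 26.6 and 0.396 FPKM, so it was close to Fmod and Prelp in MEFs and below both at day 6. Lum, best known from the cornea and from skin, was at 5.75, 5.82, 9.89 and 0.0505 FPKM. Podn, the class V member, was at 4.24, 5.71, 8.06 and 0.551 FPKM.

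**Figure D1:**
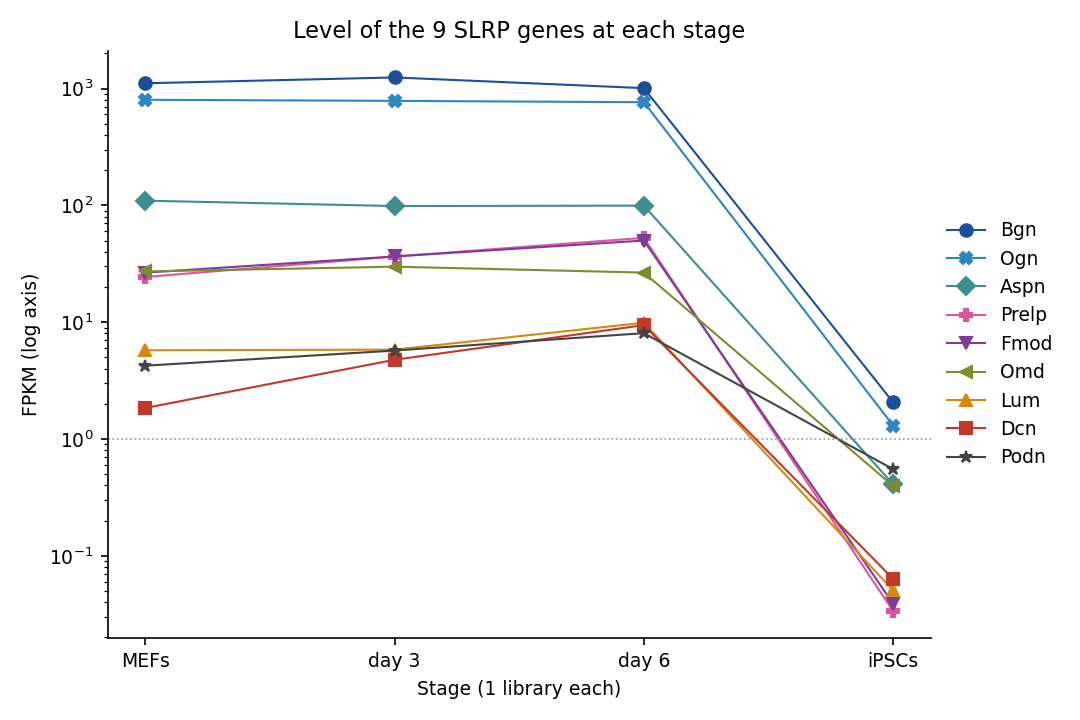
FPKM of the 9 SLRP genes (log axis) across the 4 stages from MEFs to iPSCs, with 1 library per stage and a dotted line at 1 FPKM. Bgn and Ogn hold at least 764 FPKM through day 6, Dcn goes through 1.84, 4.76 and 9.43 FPKM, and in iPSCs the highest member is Bgn at 2.06.

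The order of the members held at the top and shifted below. Bgn, Ogn and Aspn led in that order through day 6. Prelp took positions 6, 5 and 4 of the 9 over the first 3 stages, and Omd positions 4, 6 and 6. Neighbours in the order were often too near to rank without an error. Omd and Fmod differed by 1.02-fold in MEFs, Fmod and Prelp by 1.00-fold at day 3, and Lum and Dcn by 1.05-fold at day 6. Dcn stood at position 9 in MEFs and at day 3, and at 8 on day 6, above Podn. In iPSCs the order was Bgn, Ogn, Podn, Aspn, Omd, Dcn, Lum, Fmod and Prelp, with the widest step, 6.24-fold, between Omd and Dcn. The values from Dcn to Prelp were 0.0634 FPKM or less, so the order among them and the size of that step are uncertain.

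Through day 6 the members divided into those that ended near their MEF level and those whose values were higher at each step. Dcn, Lum, Fmod, Prelp and Podn had their values in the order MEFs, day 3, day 6, which is 5 of 9 members. Among all 11884 rows with at least 1 FPKM in any of these 3 libraries, 19.5% had that order at any size. For Lum the first step was only 0.02, from 5.75 to 5.82 FPKM, so its place among the 5 is uncertain. The opposite order was seen in 1 of 9, Ogn, against 25.8% of all rows. For Ogn the highest of the 3 values was 1.05 times the lowest, and after rescaling to equal column totals its differences changed sign. Bgn, Aspn and Omd had highest values of 1.23, 1.11 and 1.12 times their lowest.

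At day 3, 1 of 9 members was called higher than in MEFs, against 0.170% of the 11740 rows compared, and 0 of 9 were called lower, against 0.0511%. The called member was Dcn, with 4.76 FPKM at day 3 and 1.84 in MEFs, a difference of 1.02 that lay just past the limit of 1. This call was lost with a pseudocount of 5 (0.51) and with a minimum of 5 FPKM. Below that limit, Prelp differed by 0.56, Fmod by 0.45 and Podn by 0.36. For scale, the robust SD of this difference, which holds noise and real differences alike, was 0.142 over genes at 10 to 100 FPKM and 0.169 over genes at 1 to 10 FPKM. The median over the members was 0.17, beside -0.02 over all rows.

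Between day 6 and day 3, 0 of 9 members were called in either direction, while 0.457% of the 11817 rows compared were higher and 0.398% lower. The largest differences among the members were those of Dcn (0.86) and Lum (0.68), followed by Prelp (0.52), Fmod (0.44) and Podn (0.43). Lum had almost the same value at day 3 as in MEFs, so its difference arose at this step, whereas Fmod and Prelp had steps of like size before and after day 3. Bgn had a difference of -0.30, with 1009 FPKM at day 6 and 1245 at day 3, the largest on the lower side. The median over the members was 0.43, beside -0.01 over all rows.

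Across the whole 6 days, 2 of 9 members were called higher at day 6 than in MEFs, against 0.770% of the 11816 rows compared, and 0 of 9 were called lower, against 0.584%. They were Dcn, with 9.43 FPKM at day 6 and 1.84 in MEFs (difference 1.88), and Prelp, with 52.7 FPKM at day 6 and 24.4 in MEFs (1.08). With a pseudocount of 5 the call of Prelp was lost (0.97) and that of Dcn was kept (1.08), and neither reached a log2 difference of 2. Fmod (0.89), Podn (0.79) and Lum (0.69) lay below the limit. Among the rows compared, 21 had a difference at least as large as Dcn, 82 as Prelp, 120 as Fmod, 148 as Podn and 200 as Lum. The robust SD was 0.206 at 10 to 100 FPKM and 0.224 at 1 to 10 FPKM. Omd (-0.03), Ogn (-0.07), Bgn (-0.14) and Aspn (-0.14) were near 0. Day 6 against MEFs is the sum of the other steps, so these counts are not independent of those above.

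**Figure D2:**
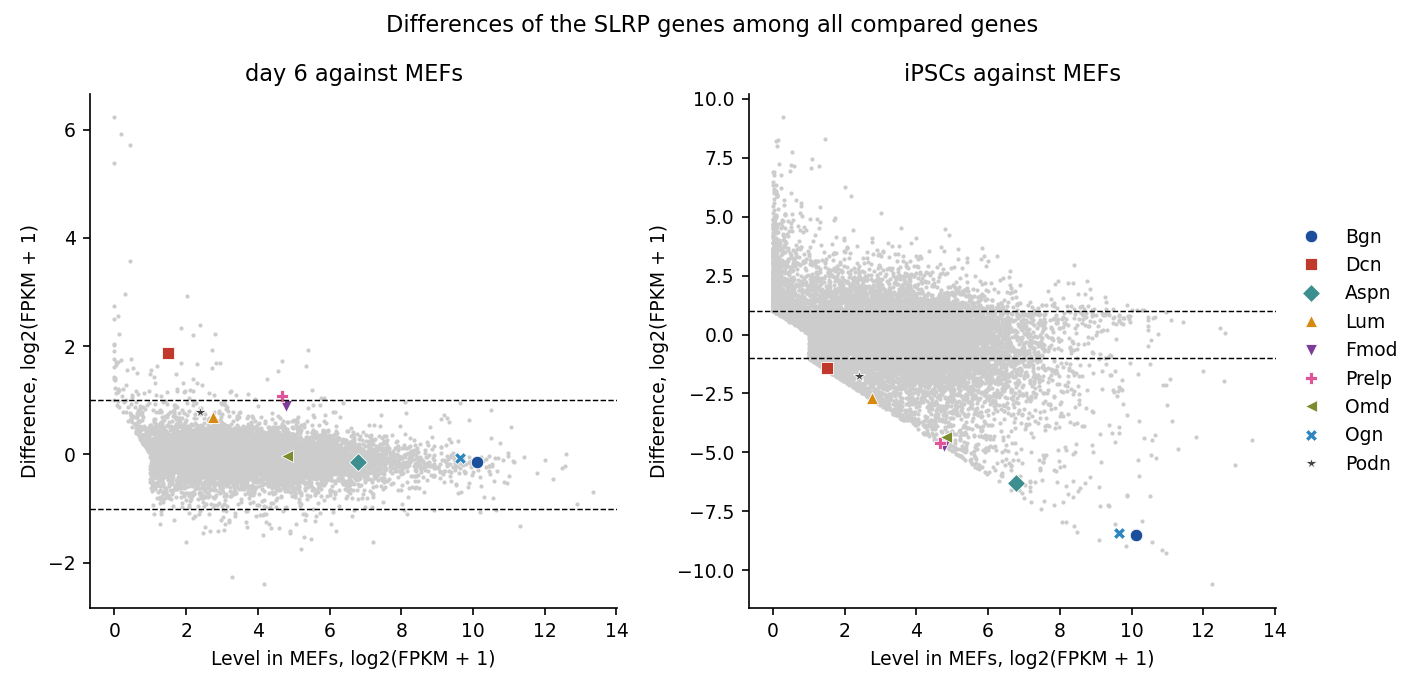
Difference in log2(FPKM + 1) against the level in MEFs for all compared rows (grey) and the 9 SLRP genes (coloured), for day 6 against MEFs and iPSCs against MEFs, with dashed lines at the limit of 1. At day 6 Dcn (1.88) and Prelp (1.08) lie above the upper line, and in iPSCs all 9 genes lie below the lower line, between -1.42 and -8.50.

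Summed over the family, the level hardly differed through day 6. The 9 genes added up to 2111, 2247, 2029 and 4.90 FPKM over the 4 stages. Bgn and Ogn set these sums, with 49.7% and 37.7% of the total at day 6, against 52.6% and 38.0% in MEFs. Without them the other 7 genes summed to 256.1 FPKM at day 6, against 199.6 in MEFs. Fmod and Prelp made up 2.46% and 2.60% of the family sum at day 6, against 1.26% and 1.16% in MEFs. Dcn made up 0.465% at day 6, against 0.0873% in MEFs.

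**Figure D3:**
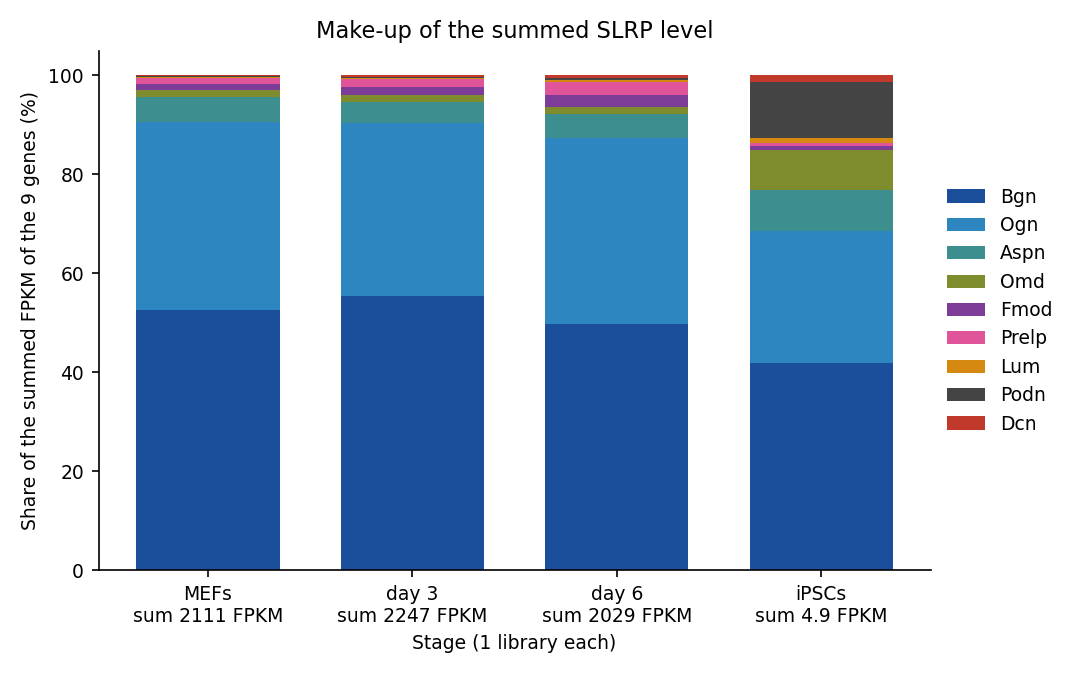
Share of each gene in the summed FPKM of the 9 SLRP genes, as stacked bars across the 4 stages from MEFs to iPSCs, with the sum written under each bar. Bgn and Ogn fill most of each bar, and the sum is 2029 FPKM at day 6 and 4.90 in iPSCs.

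In iPSCs all members were low. Of the 9 genes, 9 were called lower in iPSCs than in MEFs, against 25.0% of the 12937 rows compared, and 0 were called higher, against 21.1%. Against day 6, 9 of 9 were called lower, beside 23.4% of the 12951 rows, and 0 higher, beside 20.4%. Both contrasts use the iPSC library, so they are not separate evidence. The median difference was -4.62 against MEFs and -5.62 against day 6, beside -0.05 and -0.02 over all rows.

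Bgn and Ogn stayed the highest members in iPSCs, with 2.06 and 1.30 FPKM, and were the only members above 1 FPKM there. The iPSC value was 0.185% of the MEF value for Bgn and 0.162% for Ogn, with log2 differences of -8.50 and -8.45. Among the 12937 rows compared, 7 were at least as far below MEFs as Bgn and 8 as Ogn. Fmod and Prelp were at 0.146% and 0.138% of their MEF values, similar shares at far lower levels. Their log2 differences were -4.73 and -4.62, since a gene close to 0 in iPSCs cannot fall further on this scale than its MEF level allows. Aspn was at 0.372%, Lum at 0.879%, Omd at 1.46% and Dcn at 3.44% of the MEF value. The iPSC values of Fmod, Prelp and Lum lay under the 0.06 FPKM used above to gauge depth, so the shares of these genes are coarse. Podn kept the largest share, 13.0%, with 0.551 FPKM in iPSCs and 4.24 in MEFs. The 3 lowest values in MEFs thus gave 2 of the 3 largest remaining shares, those of Podn and Dcn.

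Of the 6 members with at least 10 FPKM in MEFs, 4 were under 1 FPKM in iPSCs (Aspn, Omd, Fmod and Prelp), against 3.94% of the 6647 rows that began at that level. These limits of 10 and 1 FPKM were chosen after the values were seen. Dcn and Podn, the weakest members in MEFs, were called lower in iPSCs by differences of -1.42 and -1.76, and these calls were lost with a pseudocount of 5 (-0.43 and -0.73).

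Genes of the family that lie side by side in the genome were compared. In the annotation of GRCm38.p6, Optc, Prelp and Fmod are consecutive coding genes, as are Dcn, Lum, Kera and Epyc, and Ecm2, Aspn, Omd and Ogn. Next to Prelp and Fmod, Optc (opticin, of the eye) measured 1.11, 0.956, 0.876 and 0.120 FPKM over the 4 stages. Next to Dcn and Lum, Epyc (epiphycan, of cartilage) was at 5.12, 4.23 and 2.54 FPKM through day 6 and listed at 0 in iPSCs. Kera (keratocan, of the cornea) was at 0.0107 FPKM in MEFs and listed at 0 in the other 3 libraries. Next to Aspn, Ecm2 was at 4.09, 3.51, 2.13 and 0.508 FPKM. Epyc and Ecm2 thus had lower values at day 6 than in MEFs beside members that were level or higher, although the differences of Epyc and Ecm2 were not past the limit. That of Optc was -0.17, smaller than the robust SD of 0.224 over genes at 1 to 10 FPKM.

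The gene Cenpp, of a centromere protein, overlaps Ecm2, Aspn, Omd and Ogn in that annotation. It was at 17.2 FPKM in iPSCs, against 4.40 in MEFs, and at 4.79 and 5.11 FPKM at day 3 and day 6. The sources used here do not give the strand setting of the counting, so reads of genes that overlap on opposite strands may not have been separated. Beside Cenpp, the iPSC values of Aspn, Omd and Ogn were 0.408, 0.396 and 1.30 FPKM, and the part of the overlap in them was not tested.

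**Figure D4:**
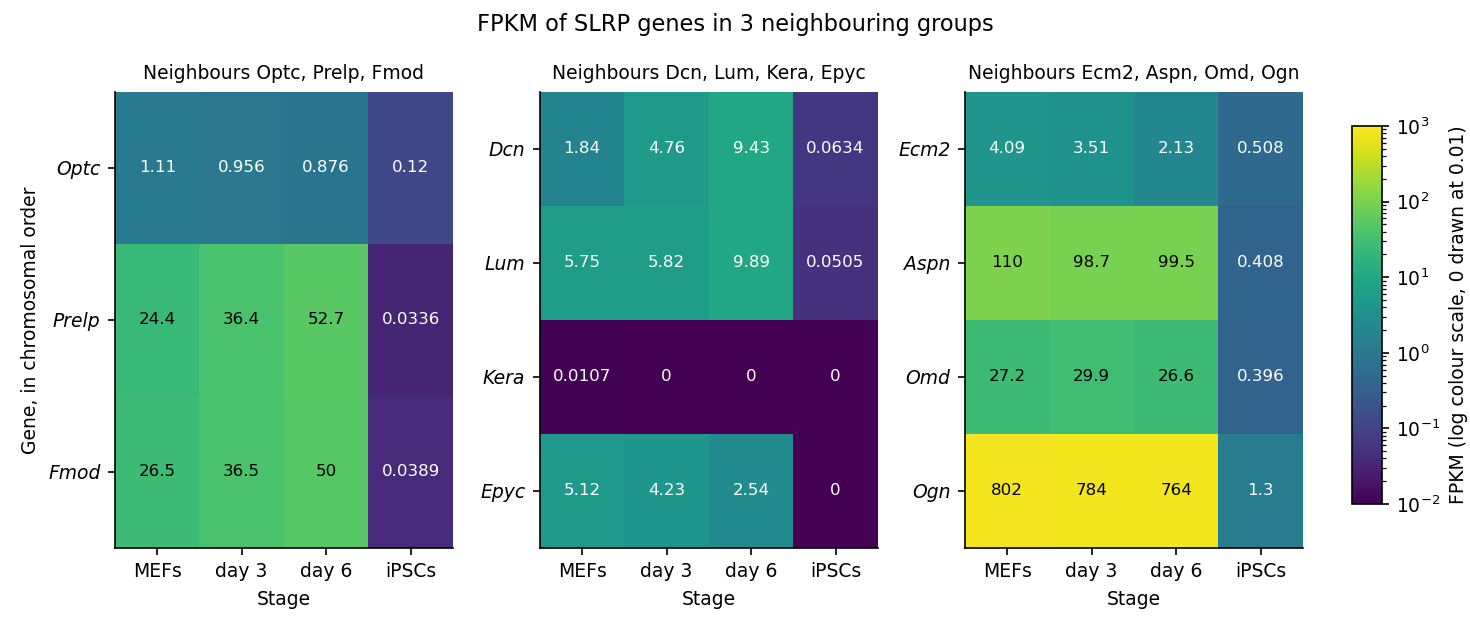
FPKM (colour, log scale, with 0 drawn at 0.01, and the value in each cell) of 3 groups of neighbouring SLRP genes in chromosomal order, across the 4 stages from MEFs to iPSCs. Prelp and Fmod reach 52.7 and 49.98 FPKM at day 6 beside Optc at 0.876, and Aspn, Omd and Ogn hold their levels beside Ecm2 at 4.09, 3.51 and 2.13.

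Of the other 9 genes of the family (Kera, Epyc, Optc, Nyx, Chad, Tsku, Podnl1, Ecm2 and Chadl), 5 reached 1 FPKM in MEFs or iPSCs. Of these 5, 3 were called lower in iPSCs than in MEFs (Ecm2, Epyc and Tsku), beside 25.0% of all rows, and 0 higher, beside 21.1%. Tsku (tsukushi), a secreted inhibitor of BMP and Wnt signals, had values in the same order as the 5 members above, with 17.2, 20.1 and 26.4 FPKM through day 6, and kept 4.87 FPKM in iPSCs. The difference of Tsku between day 6 and MEFs was 0.59, below the limit.

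The genes with the nearest patterns were found by the Euclidean distance between log2(FPKM + 1) profiles, each centred on its mean over the 4 libraries, among the 13101 rows with at least 1 FPKM in any. Over 4 points, of which iPSCs differ most, this likeness is mainly one of the size of the iPSC difference. Fmod and Prelp were nearest to each other of all rows (distance 0.14), and the next for both was Timp3, an inhibitor of metalloproteinases (0.23 and 0.32). Timp3 was at 280, 308, 477 and 9.22 FPKM over the 4 stages. After it came Fgf7 for Fmod and 6330406I15Rik for Prelp. Bgn and Ogn were likewise nearest to each other (0.21), followed for both by Wisp2, and then by S100a4 for Bgn and Il1rl1 for Ogn.

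For Dcn the nearest were Sned1 (0.16), which encodes a matrix protein, Nqo1 (0.41) and Ly6c1 (0.51). Sned1 was at 3.92, 8.84, 14.6 and 0.719 FPKM, and like Dcn it had higher values at each step through day 6. In iPSCs Dcn was lower, at 0.0634 FPKM, a gap that the pseudocount of 1 makes small on the scale used for the distance. Nqo1, a quinone reductase, was at 41.2, 62.3, 159 and 15.4. The nearest to Aspn were Cthrc1 (0.06), a secreted collagen triple helix protein at 419, 377, 362 and 4.34 FPKM, then Ifi27l1 and Serpinf1. The nearest to Omd were Pdgfc (0.08), Fosl2 and Sema3f. Those of Lum were Il18 (0.21), Ikbkg and Dio3, and those of Podn were Aim1 (0.10), Dlk1 and Pbp2. Apart from the 2 pairs, no member was among the 3 nearest to another.

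Collagens are the main ligands of SLRPs, and their genes followed the family in iPSCs. Of 14 genes of collagens that form or coat fibrils, 13 were called lower in iPSCs than in MEFs, beside 25.0% of all rows. The median was -6.47. At day 6 against MEFs, 0 were called (median 0.26). Col1a1 measured 939, 1257, 1453 and 7.47 FPKM over the 4 stages. Col1a2 measured 1457, 1505, 1807 and 11.8 FPKM, and Col3a1 at 553, 491, 609 and 2.62. The fibril-core genes Col5a2 and Col11a1 had lower values at day 6 than in MEFs, with 1378 and 1985 FPKM for Col5a2 and 167 and 289 for Col11a1. Lysyl oxidase, which crosslinks collagen and binds fibromodulin, had 1718 FPKM of Lox at day 6 and 1840 in MEFs.

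The enzymes that build the sugar chains of SLRPs were compared as separate lists. Of 23 genes of chondroitin and dermatan sulfate synthesis, 20 were compared between iPSCs and MEFs (median -1.82). Of these 20, 17 were called lower in iPSCs, beside 25.0% of all rows, and 0 higher, beside 21.1%. The chain polymerizing factors Chpf and Chpf2 were at 9.93 and 4.18 FPKM in iPSCs, against 87.3 and 49.4 in MEFs. Dse, the epimerase that makes dermatan sulfate, was at 30.6 FPKM in iPSCs, against 81.0 in MEFs. Fam20b, the xylose kinase of the linker, was at 9.56 FPKM in iPSCs, against 28.2 in MEFs. At day 6 none of the 21 compared was called against MEFs (median -0.15, with 15 of 21 below 0).

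Of 9 genes of keratan sulfate synthesis, 7 were compared between iPSCs and MEFs (median -0.29). Of these 7, 1 was called lower in iPSCs, beside 25.0% of all rows, and 1 higher, beside 21.1%, so neither count stands out. The lower one was Chst2, with 0.466 FPKM in iPSCs and 1.94 in MEFs. The higher one was B3gnt7, an N-acetylglucosaminyltransferase of keratan sulfate, at 12.3 FPKM in iPSCs, against 0.0150 in MEFs. The galactosyltransferase B4galt1 was at 17.0 FPKM in iPSCs, against 30.6 in MEFs, and the fucosyltransferase Fut8 at 10.2, against 11.4. These transferases also act on other glycans. At day 6 against MEFs, 0 of the 6 compared were called. Whether the sugar-chain lists differ from each other was not tested.

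Of 25 growth factors, receptors and matrix proteins reported to bind SLRPs, 24 were found and 22 compared between iPSCs and MEFs (median -2.51). Of these 22, 18 were called lower in iPSCs, beside 25.0% of all rows, and 1, Bmp6, higher, beside 21.1%. Tgfb3, a ligand held by decorin and biglycan, was at 0.932 FPKM in iPSCs, against 143 in MEFs, and at 119 and 72.6 FPKM at day 3 and day 6. Tgfb2 measured 63.3, 59.9, 49.3 and 2.29 FPKM over the 4 stages. Fbn1, the fibrillin of microfibrils to which SLRPs bind, was at 177 FPKM at day 6, against 143 in MEFs, and at 0.884 in iPSCs. Lrp1, an endocytic receptor that takes up decorin, was at 76.2 FPKM at day 6, against 60.4 in MEFs, and at 10.4 in iPSCs. None of the 20 compared was called at day 6 against MEFs (median -0.12).

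Of 13 proteases reported to cleave SLRPs, 11 were compared between day 6 and MEFs. Of these 11, 1 was called higher, beside 0.770% of all rows, and 1 lower, beside 0.584%. Mmp3, a stromelysin, was called higher with 2.45 FPKM at day 6 and 0.523 in MEFs, so it was compared only through its day 6 value. Tll1, a relative of the procollagen C-proteinase that also processes SLRP propeptides, was called lower with 16.7 FPKM at day 6 and 37.0 in MEFs. Bmp1, that proteinase itself, was at 60.0 FPKM at day 6 and 74.3 in MEFs, and 9 of the 11 lay below 0 (median -0.30). In iPSCs 9 of the 10 compared were called lower than in MEFs, beside 25.0% of all rows, and 1, Mmp9, higher, beside 21.1%.

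Other proteoglycan core proteins were called in both directions in iPSCs. Of 23, 22 were found and 19 compared, and 11 were called lower in iPSCs than in MEFs and 4 higher (Agrn, Spock1, Spock2 and Srgn), with a median of -1.15. The 4 of 19 called higher are close to the 21.1% of all rows called higher, and the 11 called lower stand beside 25.0% of all rows. The transmembrane Sdc4 (syndecan) kept 82.8 FPKM in iPSCs, against 236 in MEFs, and Hspg2 (perlecan, of basement membranes) 22.1, against 71.0. Sdc2 was at 4.45 FPKM in iPSCs, against 185 in MEFs. At day 6 against MEFs, 0 of 18 were called (median 0.19).

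**Figure D5:**
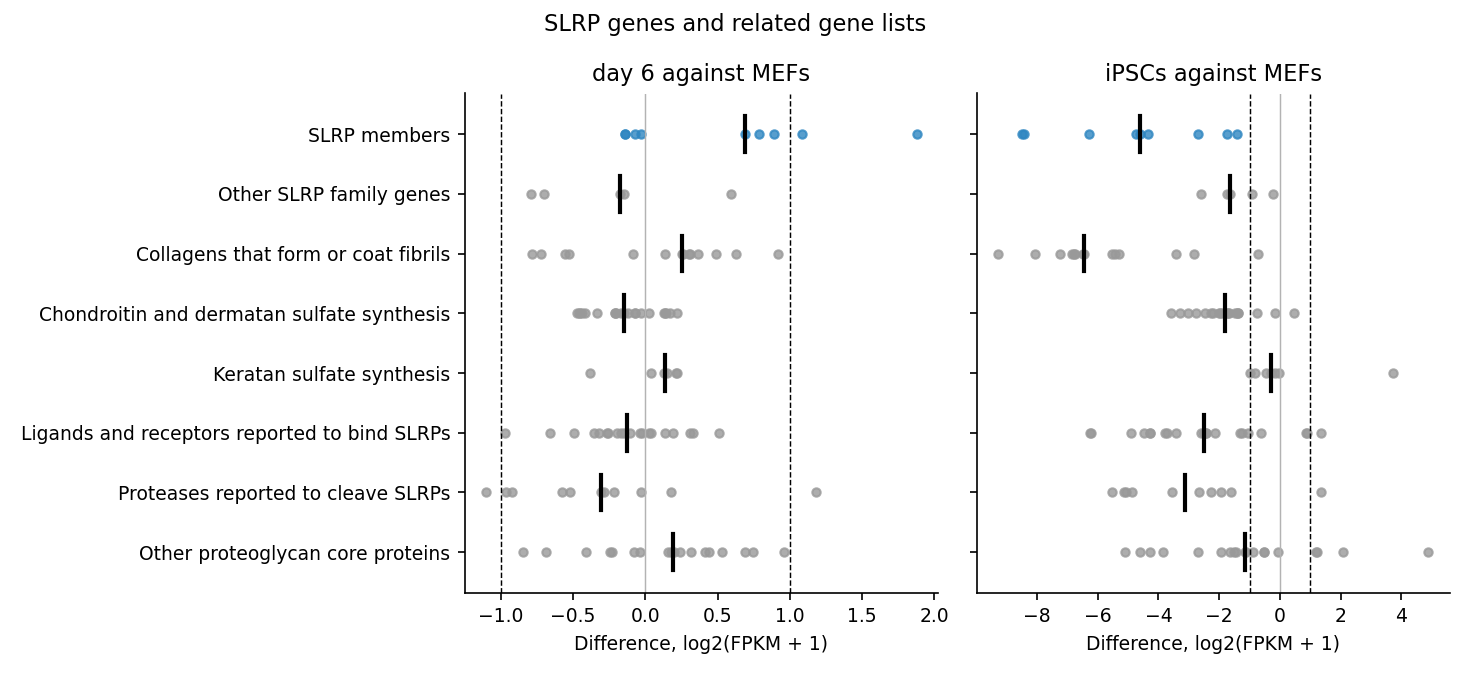
Differences in log2(FPKM + 1) of each compared gene (points) and their median (black bar) for the 9 SLRP genes (blue, top) and 7 related lists (grey), for day 6 against MEFs and iPSCs against MEFs, with dashed lines at the limit of 1. The SLRP median is 0.69 at day 6 and -4.62 in iPSCs, where the fibril collagen median is -6.47 and that of keratan sulfate synthesis -0.29.

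Markers of other cell types moved over the same days. Of 8 smooth muscle markers, 6 were called lower at day 6 than in MEFs, beside 0.584% of all rows. The list summed to 2448 FPKM at day 6, against 5543 in MEFs, with none listed at 0. Of 11 chondrocyte markers compared, 1 was called lower (Hapln1), beside 0.584% of all rows, and 10 were below 0 (median -0.69). Their list summed to 719 FPKM at day 6 and 1067 in MEFs, with none of the 12 found listed at 0. The tendon list had a median of -0.31, with 325 FPKM at day 6 and 354 in MEFs, none of its 6 genes listed at 0 and 0 called. All 3 sums were lower at day 6 than in MEFs, as was the total of all rows, at 449922 FPKM against 486609. At day 3 the chondrocyte and tendon sums were 1288 and 369 FPKM, above those in MEFs, and the smooth muscle sum was 4547.5. The higher chondrocyte sum came mostly from Col2a1, at 941 FPKM at day 3 and 740 in MEFs. That of the tendon list came mostly from Egr1, at 99.97 and 72.4. The medians at day 3 were 0.02 and -0.003, with 6 of 11 chondrocyte and 2 of 5 tendon genes above 0.

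Of 8 keratinocyte markers, 6 were found (not Krt5 and Lor) and 4 were compared. Of these 4, 3 were called higher at day 6 than in MEFs (Krt14, Krt16 and Sprr1a), beside 0.770% of all rows. Krt14, Krt16 and Trp63 were under 1 FPKM in MEFs and were compared only through their day 6 values. The count of 3 can therefore not be read against that share. The 6 found summed to 20.01 FPKM at day 6 and 3.66 in MEFs. Of these 6, 2 (Krt14 and Krt6a) were listed at 0 in MEFs. The macrophage list summed to 67.2 FPKM at day 6, against 83.1 in MEFs, with 0 of 7 called and none of its 10 genes listed at 0. The osteoblast list was carried by Spp1, at 4008 FPKM at day 6, against 7598 in MEFs. Runx2, the master factor of osteoblasts, was at 6.20 FPKM at day 6, against 4.30 in MEFs. Sp7, Ibsp, Dmp1 and Phex were under 1 FPKM in both libraries, and Bglap was at 0.147 FPKM at day 6 and listed at 0 in MEFs. The part of these cell types in the SLRP values was not tested.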

How the data were processed

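RNA-seq libraries of ribosome-depleted RNA were made from 4 groups, 1 library each, per the labels' protocols. Small RNA libraries of the same series were not used here. The authors deposited 1 table of FPKM values per gene and library, per the file headers. HISAT2, Cufflinks and build mm9 are named, with no version or role, in the submitters' processing notes. The sources used here do not give the strand setting, gene models or filters. The depth is unknown, and the FPKM columns summed to between 438130 and 486609.

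Values were used as deposited, with Python 3.11.15, pandas 2.3.3 and matplotlib 3.10.9. Differences were taken on log2(FPKM + 1) and called at a size of 1 with the higher value at least 1 FPKM, after a check on simulated data. A symbol on several rows was represented by its highest row. Of each related list, the text draws named genes from the 8 with the highest mean FPKM and those called in an early contrast, plus those, chosen after their values were seen, needed to name a small count. For each member the 3 nearest patterns were named. The members and lists were chosen with earlier results of these data known. Promoters and gene order came from RefSeq on GRCm38.p6, which is not the build of the table, so the table's rows have no coordinates here.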

Additional observations from a re-analysis of the deposited data

How the results depend on the processing

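Of 80 counts of members under 8 alternative settings, 75 stayed within 1.5 times the reported count. Most of the reported counts were 0 and stayed 0, so this share says little about the early calls. The other 5 were counts of members higher at day 3 or day 6 than in MEFs. For day 3 against MEFs (1 member, Dcn), a pseudocount of 5, a minimum of 5 FPKM and a log2 difference of 2 each gave 0. For day 6 against MEFs (2 members), a pseudocount of 5 gave 1, which was Dcn, and a log2 difference of 2 gave 0. The 9 members lower in iPSCs than in MEFs became 7 with a pseudocount of 5, a minimum of 5 FPKM or a log2 difference of 2, each without Dcn and Podn, and were 9 of 9 against day 6 under all 8 settings. Of 270 differences of single members, 35 moved by 1.5-fold or more, all under other pseudocounts, and no called one reversed. Of the 270, 45 came from summing the rows of a symbol and could not move, since each member has 1 row. Rescaling moved no count, though equal column totals scaled day 6 up by 0.11 and iPSCs by 0.15 (log2) relative to MEFs, and equal upper quartiles scaled iPSCs up by 0.18. Uncalled differences of Omd and Ogn changed sign under it, such as that of Ogn at day 6 against MEFs, which was -0.07 as deposited and 0.04 with equal column totals.

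No paired analysis was possible because there was 1 library a group, and no replicate was left out. The values carry no error. If the day 3 library is shallower, as estimated from the ratio of low values, it limits low values most.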
